A study of Mus musculus with 6 samples.

Results

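Upk1b, Cnr1, Lix1, Cthrc1, Wfdc2 and Prr5 are 6 genes of 16911 named in the table. They had almost no reads in wild-type naive CD4 T cells and clear reads in Trim28 KO cells, where some Trim28 RNA remained. They were chosen on exactly that difference, taking the transcript row with the highest total for each symbol, and each of the 6 had a single row. Their levels between the groups are therefore described here and not tested. The wild-type libraries (WT1, WT2, WT3) and the Trim28 KO libraries (KO1, KO2, KO3) came from littermate C57BL/6 mice, the latter labelled TRIM28KO, and all titles carry the mark D0. Naive CD4 T cells, helper T cells that have not met their antigen, were enriched with magnets and then sorted. The labels give neither the age of the mice, nor how or in which cells Trim28 was deleted. They also do not say whether each library came from a separate mouse. Error values thus measure the spread between libraries, which may be technical in part.

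TRIM28 is a corepressor that zinc finger proteins carry to chosen DNA sites, where it gathers enzymes that lay down repressive histone H3 lysine 9 methylation. Endogenous retroviruses are its best known targets, and genes close to such elements can be held silent with them. The 6 genes have no common function, and most are known from other tissues. Upk1b encodes uroplakin 1b, a tetraspanin of the bladder lining. Wfdc2 encodes a small secreted protein with whey acidic protein domains, made by epithelia of the airways and the reproductive tract. Cthrc1 encodes a secreted glycoprotein with a short collagen-like repeat that is made by activated fibroblasts and acts on noncanonical Wnt signalling. Cnr1 encodes the CB1 receptor for cannabinoids, abundant in brain. Lix1 was first described in the developing limb. Prr5 encodes Protor-1, which binds Rictor in the kinase complex mTORC2.

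Normalized read counts are reads divided by a size factor per library, so 1 read was worth between 0.714 (KO1) and 1.46 (KO2) normalized reads. The depth ran from 22005759 to 44372701 reads per library. Trim28 itself was at 8429, 8287 and 9428 in the wild-type libraries and at 738, 628 and 1247 in KO1, KO2 and KO3. The libraries also differed outside the genotype. Y-linked transcripts (Ddx3y, Eif2s3y, Kdm5d and Uty) summed to 13625 in WT1 and 12677 in KO2, and to at most 2.39 in the other libraries. The libraries of a group thus did not all come from the same mice. KO3 stood apart by its sums over markers of other blood cells. The 7 B cell markers summed to 1747 there, against 180 to 351 in the other libraries. The 7 myeloid markers summed to 744 against 50.6 to 254. The 5 markers of CD8 T cells and natural killer cells summed to 4802 against 642 to 1136. Not every marker was highest in KO3. Itgax (292), Lyz2 (287) and Csf1r (144) carried the myeloid sum of KO3, while Itgam, Adgre1, Cd68 and Cd14 were higher in another library. Cd8b1 (4206) carried most of the CD8 and natural killer sum, and Eomes was at 18.3 in KO3 and 22.0 in WT2. Ebf1, a B cell marker, was at or below 1.10 in every library. The 11 T cell markers summed to between 146610 and 175872 in all libraries, Cd4 and Cd3d among them. In such bulk RNA, more cells of a type and more RNA per cell cannot be told apart.

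Start regions were available from RefSeq (GRCm38.p6, the assembly of mm10) for 4 of the 6 genes. They are shown to compare base composition at the annotated starts. The counts carry no read positions, so where transcription of these genes begins in KO cells is not known. Bases before the annotated start, outside annotated exons, are printed 5′ to 3′ on the plus strand with CG dinucleotides in capitals. The start nearest to that of the measured transcript was taken. It lay 12 (Cnr1), 4 (Prr5), 136 (Wfdc2) and 14 (Lix1) bases from it. The stretches lie at chr4:33924394-33924592 (Cnr1), chr15:84680748-84680997 (Prr5), chr2:164562475-164562578 (Wfdc2) and chr17:17402436-17402671 (Lix1).
Cnr1: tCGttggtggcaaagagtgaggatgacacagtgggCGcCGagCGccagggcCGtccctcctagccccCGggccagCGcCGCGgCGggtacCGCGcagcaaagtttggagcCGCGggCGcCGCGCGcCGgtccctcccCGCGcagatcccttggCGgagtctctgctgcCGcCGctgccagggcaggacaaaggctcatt
Prr5: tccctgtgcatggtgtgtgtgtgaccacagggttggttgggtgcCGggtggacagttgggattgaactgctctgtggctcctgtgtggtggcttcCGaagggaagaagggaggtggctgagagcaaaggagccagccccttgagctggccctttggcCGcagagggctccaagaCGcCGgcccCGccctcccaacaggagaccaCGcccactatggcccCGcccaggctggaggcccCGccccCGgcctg
Wfdc2: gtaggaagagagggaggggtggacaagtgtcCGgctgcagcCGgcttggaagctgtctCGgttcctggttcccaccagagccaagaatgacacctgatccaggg
Lix1: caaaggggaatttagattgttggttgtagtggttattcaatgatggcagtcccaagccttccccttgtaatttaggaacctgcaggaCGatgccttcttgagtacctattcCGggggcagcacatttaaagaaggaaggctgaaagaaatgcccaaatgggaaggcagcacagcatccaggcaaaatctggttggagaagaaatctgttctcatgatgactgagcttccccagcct

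The starts differed in CG content. Over the whole RefSeq window of 300 bases, from 250 before the start to 50 after it, Cnr1 held 33 CG dinucleotides, which is more than 91.4% of all 32851 such windows. Prr5 held 17 and Wfdc2 16, above 68.6% and 67.0% of windows. Lix1 held 3, above 23.3%. The median was 7 over all windows and 20 over those of genes with a tested row. The letters TATAAA, searched on both strands, were in none of these 4 windows and in 13.6% of all windows and 7.30% of those of genes with a tested row. That says only that these letters are not in the window.

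Upk1b (row NM_178924, gene span on chromosome 16, 38773182 to 38800203, minus strand) reached the highest level of the 6. It was at 0, 2.20 and 0 normalized reads in the wild-type libraries and at 299.9, 2969.9 and 2486 in KO1, KO2 and KO3. The wild-type group held 2 reads in all and the KO group 5577. The log2 fold change was 9.79, on the scale of log2 of the normalized read count plus 1, which understates the change of genes near 0. All 3 KO libraries lay far above all wild-type libraries, and KO1 lay well below the other KO libraries.

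Wfdc2 (row NM_026323, gene span on chromosome 2, 164562715 to 164568510) was at 9.76, 0 and 0.772 in the wild-type libraries and at 123, 137 and 117 in the KO libraries. The groups did not overlap, and the KO values were close to each other. Of its 8 wild-type reads, 7 came from WT1. The ratio of reads between the groups, scaled for depth, was 45.1, the smallest of the 6. The log2 fold change was 5.56.

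Cthrc1 (row NM_026778, gene span on chromosome 15, 39076932 to 39087121) had the lowest KO level of the 6. A single read was found in WT1 and none in WT2 or WT3, against 49, 85 and 72 reads in the KO libraries, or 35.0, 124 and 57.4 normalized reads. The log2 fold change was 5.58. KO2 was the highest library and KO1 the lowest, the same order as for Upk1b.

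Cnr1 (row NM_007726, gene span on chromosome 4, 33923171 to 33948831) was at 0, 0 and 0.772 in the wild-type libraries, where a single read was found, and at 278, 1752 and 786 in KO1, KO2 and KO3. The log2 fold change was 9.23. Here too KO1 was the lowest KO library and KO2 the highest, and the lowest KO value was still far above every wild-type value.

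Lix1 (row NM_025681, gene span on chromosome 17, 17402686 to 17459387) was the least silent in wild-type cells. It was at 12.5, 0 and 3.09 there and at 453, 1890.05 and 659.9 in the KO libraries. WT1 gave 9 of its 13 wild-type reads. The ratio of reads was 185 (exact binomial 95% interval for counting error 108 to 349), and the log2 fold change 7.76.

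Prr5 (row NM_146061, gene span on chromosome 15, 84663206 to 84706409) was at 1.39, 0 and 1.54 in the wild-type libraries and at 139, 150.1 and 123 in the KO libraries. With 3 wild-type reads against 452, its log2 fold change was 6.24. Its KO values were close to each other. The KO values lay above all wild-type values in each of the 6 genes, as they did in 9.21% of the 13022 rows tested, which follows from how the genes were chosen.

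**Figure D1:**
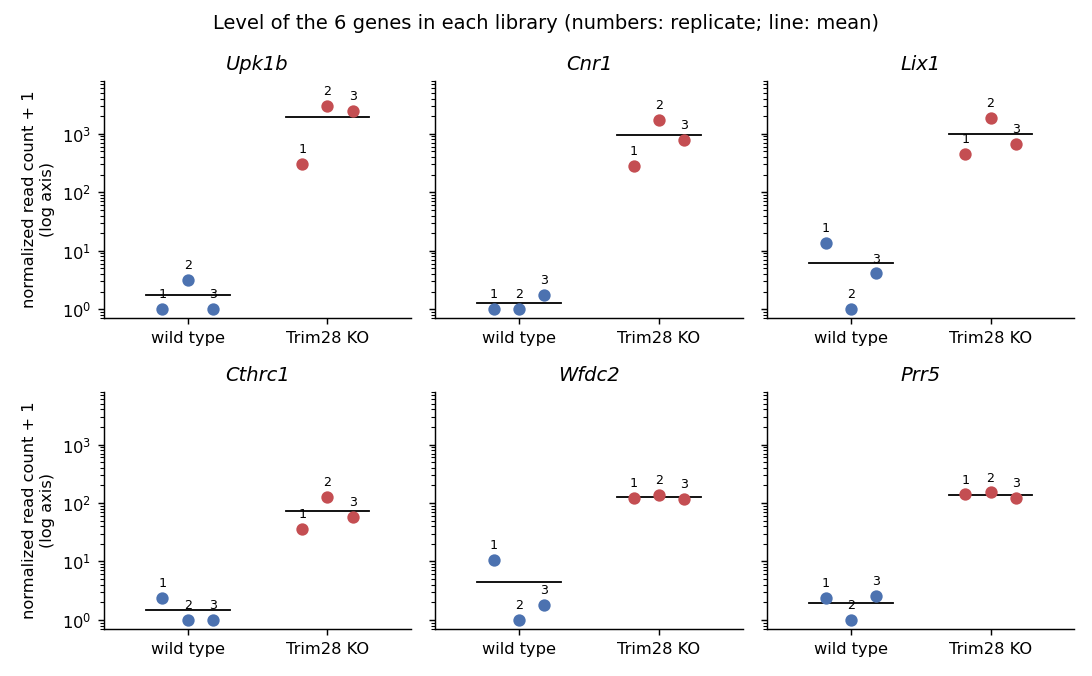
Normalized read count plus 1 on a log axis for each of the 6 genes. Points are single libraries numbered by replicate, blue for wild type and red for Trim28 KO, and lines are group means. Upk1b, Cnr1, Lix1 and Cthrc1 are spread over the KO libraries, while Wfdc2 and Prr5 sit close together, at 117 to 137 and 123 to 150.1.

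Levels between genes were compared per kilobase of the annotated transcript. In the KO libraries Upk1b stood at a mean of 1013 normalized reads per kilobase, followed by Lix1 at 321, Cnr1 at 162, Wfdc2 at 148, Prr5 at 75.1 and Cthrc1 at 61.8. The ranges over the 3 KO libraries overlapped between each pair of neighbours in this order except Wfdc2 and Prr5. Among the 12689 tested rows with a transcript length, Upk1b in KO cells was above 82.4% of rows, Lix1 above 58.2%, Cnr1 above 47.5%, Wfdc2 above 46.2%, Prr5 above 37.4% and Cthrc1 above 35.1%. The mean KO level of Upk1b was thus in the upper range of the tested rows, and those of the other 5 genes were in the middle or lower range. Some genes have several transcript rows, whereas each listed gene had a single row. These shares are therefore not ranks among genes, and they may be too high. In KO1 alone Upk1b stood at 158 per kilobase, against 1568 in KO2 and 1313 in KO3.

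**Figure D2:**
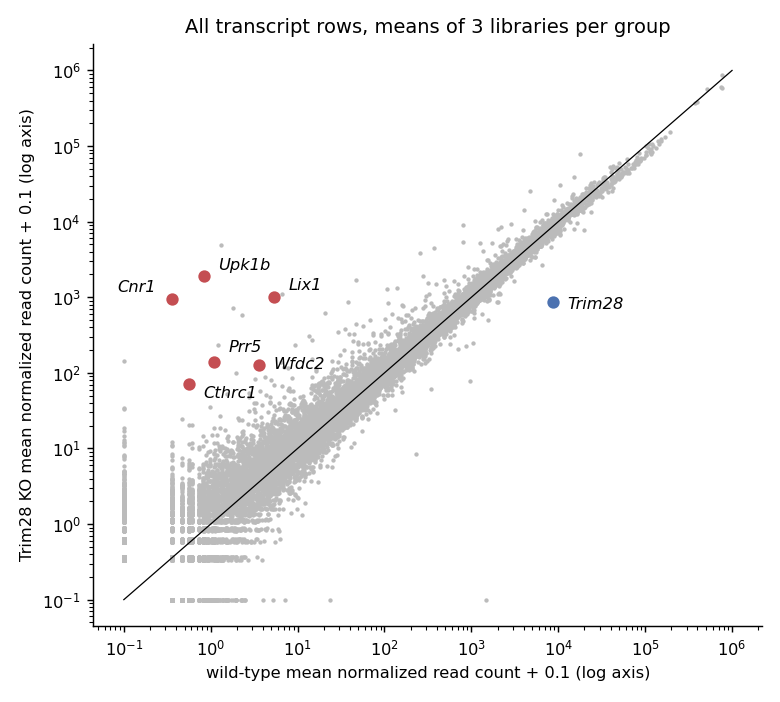
Mean normalized read count plus 0.1 in the 3 wild-type libraries (horizontal) and the 3 Trim28 KO libraries (vertical), both on log axes, for all 19048 rows (grey). The 6 genes (red) lie at the left, at wild-type means of 0.257 to 5.21 and KO means of 72.1 to 1919, and Trim28 (blue) lies below the line of equal means.

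The 6 genes differed in how evenly they were read among the KO libraries. Upk1b, Cnr1, Lix1 and Cthrc1 were lowest in KO1 and highest in KO2, by 9.90-fold, 6.31-fold, 4.18-fold and 3.54-fold. Their coefficients of variation over the 3 KO libraries were 74.1%, 79.8%, 77.6% and 64.1%. Wfdc2 and Prr5 had much lower coefficients, 8.13% for Wfdc2 and 10.03% for Prr5, and their highest KO library was 1.17 and 1.22 times the lowest. The median coefficient over the KO libraries was 14.5% for all tested rows and 15.7% for the 155 rows called higher in KO.

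A difference of at least 4-fold between the highest and the lowest KO library was found for Upk1b, Cnr1 and Lix1, for 4.12% of all tested rows, for 3.23% of the 155 rows called higher and for 2.13% of the 6423 tested rows with a KO mean in the range of the 6 genes. Rows without reads in a KO library were counted as below 4-fold, so these shares may be too low. The order of KO2 above KO3 above KO1 was found for 4 of the 6 genes, for 36 of the 155 rows called higher (23.2%) and for 13.8% of all tested rows. KO2 was the highest library for all 6 genes, though for Wfdc2 and Prr5 by little. KO2 was also the only KO library with Y-linked transcripts, and it had the lowest Trim28 level and the fewest reads. The Trim28 level was 8.46% of the wild-type mean in KO1, 7.21% in KO2 and 14.3% in KO3. The part of these differences between libraries in the spread was not tested. The sums of the B cell, myeloid and CD8 markers were highest in KO3. Without KO3 the log2 fold changes were 9.33 (Upk1b), 9.17 (Cnr1), 7.92 (Lix1), 5.65 (Cthrc1), 5.61 (Wfdc2) and 6.32 (Prr5). The part of other blood cells, in KO3 or in KO1 and KO2, in the levels of the 6 genes was not tested.

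**Figure D3:**
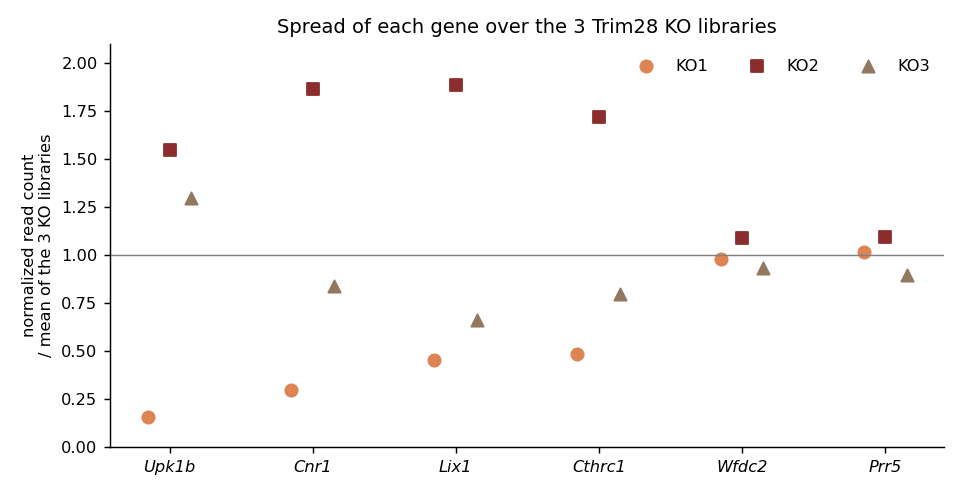
Normalized read count in KO1, KO2 and KO3 divided by the mean of the 3, for each gene (linear axis from 0). Upk1b, Cnr1, Lix1 and Cthrc1 spread widely with KO1 lowest, and the points of Wfdc2 and Prr5 lie near 1.

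Upk1b and Cnr1 were each other's nearest row in profile. Likeness was measured over the 6 libraries as the root mean square difference of log2 values, each gene centred on its own mean. Upk1b and Cnr1 differed by 0.91 log2 units, though other pairs were closer. The next rows for Upk1b were Tdrd9 (1.25) and Gstt1 (1.64), and for Cnr1 they were Cbr3 and then Kcnf1 (1.16). Lix1 was nearest to Cbr3 (0.62), Ryr2 (0.98) and Prr5 (1.21). Cthrc1 was nearest to a row of Cacna1b (0.62), to Snai3 (0.64) and to Prr5 (0.74). Wfdc2 was nearest to Cthrc1 (0.79), Adgrg5 (0.81) and Prr5 (0.89), and Prr5 to Snai3 (0.62), another row of Cacna1b (0.68) and Ly6d (0.72). Since the difference between the groups is large in all these rows, it sets most of the likeness.

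Rows with this pattern were few. Of 3384 rows with at most 3 reads over the wild-type libraries, 38 (1.12%) had a mean of at least 10 normalized reads in KO. Upk1b, Cnr1, Prr5 and Cthrc1 were the 2nd, 3rd, 6th and 7th of these by KO mean, Tdrd9 being the highest at 4856. Wfdc2 and Lix1 had too many wild-type reads, 8 and 13, to be counted. In the other direction, of 2642 rows with at most 3 KO reads, 2 had a wild-type mean of at least 10. These were Ifi44l, at a wild-type mean of 23.5, and the non-coding BC018473, at 1473, each with 0 KO reads and named after their values were seen.

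The 38 rows were not all alike. In 12 of them more than 80% of the KO level came from 1 library, which was KO3 in 10, among them Il22 (50.2 in KO3 and 0 in KO1 and KO2), Prg3 (78.9 in KO3) and Il1b (29.5 in KO3), named after their values were seen. Il22 and Il1b encode cytokines and Prg3 a granule protein of eosinophils. KO3 was the library with the highest sums of B cell, myeloid and CD8 markers. The part of such cells in these rows was not tested. At least 10 normalized reads in every KO library were found in 14 rows, the 4 listed genes among them. Just below Cthrc1, whose KO mean was 72.1, came Nxpe5 at 35.7 and Abca6 at 33.8. Without KO3, 24 rows were counted.

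**Figure D4:**
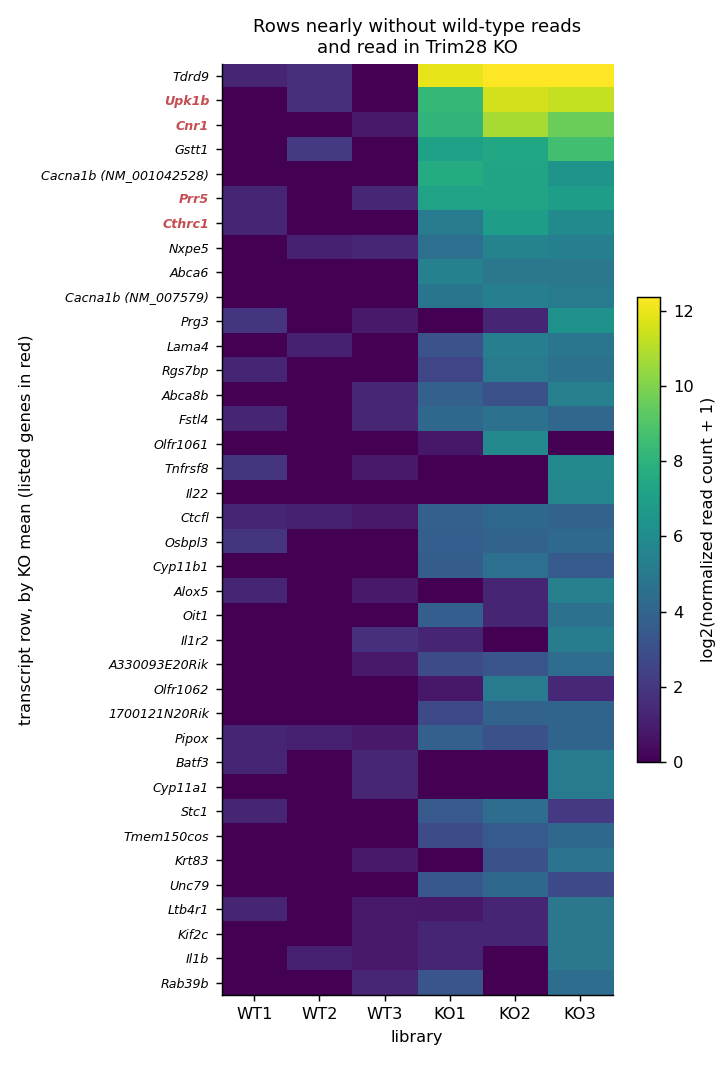
Log2 of the normalized read count plus 1 in each library (columns) for the 38 rows with at most 3 wild-type reads and a KO mean of at least 10 (rows, ordered by KO mean). Upk1b, Cnr1, Prr5 and Cthrc1 (red labels) are read in all 3 KO libraries, whereas rows such as Il22 are read in KO3 alone.

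Among the genes beside the 6 that could be tested, 1 rose and the others did not pass. The rule for the 6 genes does not name these neighbours, but the 6 were chosen with earlier results of these data known. Within 200 kb of the 6 gene bodies, RefSeq lists 80 genes, of which 19 had a row and 12 passed the filter of a mean of 10. In limma 1 of the 12 was called higher (adjusted p under 0.05 over all rows) and 0 lower, with 4 at an unadjusted p under 0.05, a threshold that 12.7% of all tested rows passed. Of all tested rows, 1.19% were called higher and 0.315% lower, 1.51% in all. The median log2 fold change of the 12 was 0.25, against 0.0019 for all tested rows, and 11 of them changed by less than 1 on the log2 scale. Voom weights also called 1 of the 12.

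The gene that rose was Rtl6, a gene derived from the gag part of an ancient retrotransposon, 105 kb before Prr5. It was at 311, 322 and 344 in the wild-type libraries and at 609, 597 and 653 in the KO libraries. The groups did not overlap, and the log2 fold change was 0.93 (SE 0.11, limma adjusted p 0.00316, with 0.00235 to 0.0257 under 15 other settings, all of which called it). Its rise was thus small beside that of Prr5, at 6.24.

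Around Upk1b, the nearest measured gene was B4galt4, a galactosyltransferase gene 4.13 kb away, which had 0 wild-type reads and 0.714, 1.46 and 3.19 normalized reads in KO1, KO2 and KO3. On the other side Igsf11, an adhesion molecule gene, had 1 read in WT1 and 0 elsewhere. Arhgap31, 60.1 kb away, was at 2436, 2819 and 2791.5 in wild-type and at 4974, 4329 and 3308 in KO libraries (log2 fold change 0.63, SE 0.15, limma adjusted p 0.101), without passing. It was called without KO3 (limma adjusted p 0.0028), as was Lnpep (log2 fold change 0.55, limma adjusted p 0.0349), an aminopeptidase gene 68.3 kb from Lix1.

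Close neighbours of Cthrc1 and Lix1 were read strongly in both groups. Slc25a32, a folate carrier of mitochondria 4.11 kb from Cthrc1, had means of 1858 ± 177 and 1847 ± 295 (SD, n = 3 per group) in wild-type and KO cells. Riok2, a kinase of ribosome assembly 7.79 kb from Lix1, had means of 2021 ± 232 and 2049 ± 193. Neither passed, with log2 fold changes of -0.02 (SE 0.13) and 0.02 (SE 0.11). Cthrc1 and Lix1, near 0 in wild-type cells, thus lie beside genes that were read there.

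Near Cnr1 the nearest measured genes were Spaca1, a sperm acrosome gene 76.0 kb away with group means of 23.6 ± 6.16 and 39.8 ± 7.74 (log2 fold change 0.75, SE 0.33, limma adjusted p 0.395), and Rngtt, the mRNA capping enzyme gene 421 kb away, with 4153 ± 239 and 4371 ± 468 (SD, n = 3 per group). Near Wfdc2, Pigt, an enzyme gene of membrane anchor attachment, had 1136 ± 106 and 1345 ± 348, and Dnttip1, a subunit gene of a histone deacetylase complex, had 994 ± 71.5 and 957 ± 32.6. Sdc4, a proteoglycan gene 120 kb from Wfdc2, was at 8.37, 6.60 and 11.6 in wild-type and at 19.3, 16.03 and 134.7 in KO libraries. Its limma adjusted p was 0.336, and the high value was that of KO3. Beyond Prr5, Gm20556, 8.22 kb away, had 0 wild-type reads and 1 KO read.

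**Figure D5:**
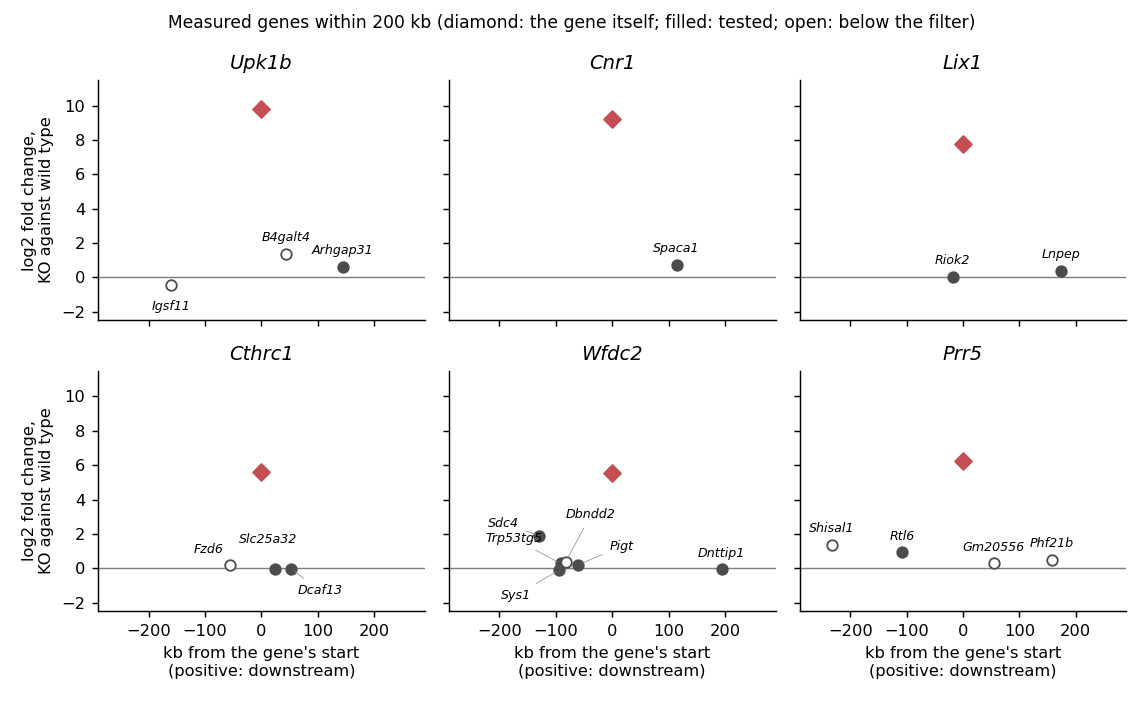
Log2 fold change of KO against wild type for measured genes within 200 kb of each of the 6 genes, against the distance of their midpoint from the start of the gene in kb. Diamonds are the 6 genes themselves at 5.56 to 9.79, filled circles are tested neighbours and open circles are neighbours below the filter; all neighbours lie at or below 1.90.

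Relatives and partners of the 6 genes were then read from the same fit. Over 7 lists, 45 such genes were tested, the 6 genes left out. In limma 0 were called in either direction, with 8 at an unadjusted p under 0.05 (12.7% of all tested rows passed it), and voom weights also called 0. Without KO3, Prickle1 and Daglb were called higher (log2 fold changes 0.66 and 0.54) and Tspan31 and Dvl1 lower (-0.71 and -0.54). The median log2 fold change of the 45 was 0.0049.

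Upk1b acts in bladder as a partner of other uroplakins. Of these, Upk1a and Upk3b had rows. Upk1a, its closest relative, was at 6.97, 5.50 and 16.2 in wild-type and 22.1, 8.74 and 12.8 in KO libraries, which overlap (limma adjusted p 0.716). Upk3b had 4 reads over the wild-type and 7 over the KO libraries. Of 18 tested tetraspanins 0 were called and 2 had an unadjusted p under 0.05. They were Tspan31, at 835 ± 94.5 and 566 ± 102 (SD, n = 3 per group), and Cd53, a pan-leukocyte tetraspanin, at 53214 ± 5979 and 42037 ± 4379.5.

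In the cannabinoid system 0 of 9 tested genes were called and 3 had an unadjusted p under 0.05. Cnr2, the CB2 receptor that leukocytes normally carry, was at 747, 1089 and 917 in wild-type and at 1367, 1304 and 1509 in KO libraries. Its groups did not overlap, and it did not pass (log2 fold change 0.62, SE 0.14, limma adjusted p 0.0985). Daglb, an enzyme that makes the ligand 2-arachidonoylglycerol, was at 395 ± 17.3 and 541 ± 60.8 (SD, n = 3 per group; limma adjusted p 0.163). Gpr55, a receptor for related lipids, was at 324 in KO3 and at 15.3 to 56.8 elsewhere. Daglb and Cnr2 had the smallest p of the list, and Gpr55 was named after its values were seen.

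Among 9 tested genes of mTORC2 and its partners, 0 were called and 0 had an unadjusted p under 0.05. The list held Akt1, Akt2, Sgk1, Telo2 and Tti1 besides subunits of the complex. Prr5l, the relative of Prr5, was listed but had no row. Rictor, the subunit that Protor-1 binds, was at 15725 ± 124 and 15268 ± 640 (SD, n = 3 per group), with a log2 fold change of -0.04 (SE 0.08). Mtor, the kinase itself, was at 3282 ± 242 and 3621 ± 476, and Sgk1, a kinase that the complex activates, at 392 ± 27.1 and 366 ± 55.7. Deptor, an inhibitor of the kinase, had 4 wild-type and 7 KO reads and was not tested. The log2 fold changes of the 9 tested genes lay between -0.35 (Mlst8) and 0.14 (Mtor).

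Of 7 tested genes of noncanonical Wnt signalling 0 were called and 3 had an unadjusted p under 0.05. These were Prickle1 (375 ± 4.02 and 550 ± 77.1, limma adjusted p 0.114), Dvl1 (3337 ± 325 and 2487 ± 348, limma adjusted p 0.175) and Vangl2 (41.6 ± 12.2 and 77.5 ± 18.3, limma adjusted p 0.249, named after its values were seen; SD, n = 3 per group). The frizzled receptor gene Fzd6, which lies 38.7 kb from Cthrc1, was at or below 1.59 in every library. Of the whey acidic protein family only Slpi, a protease inhibitor, passed the filter, at 52.5 to 763 with the highest value in KO3. The other 5 measured genes of the family were at or below 6.38 in every library. Lix1l, the paralog of Lix1, had means of 32.5 ± 10.2 and 45.8 ± 11.1 (limma adjusted p 0.584).

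Markers of urothelium, fibroblasts, smooth muscle, simple epithelium and neurons were read in the same libraries. Of the 10 urothelium markers 4 had a row, and their sum was 48.8 to 91.1 in wild-type and 49.4 to 128 in KO libraries, which overlap. Ppl, which skin also makes, carried most of it, and Grhl3 was at or below 2.86. Of the 10 fibroblast markers 3 had a row, Col1a1, Col1a2 and Col3a1, with sums of 0 to 4.40 and 1.46 to 16.7. Smooth muscle markers (4 of 5 with a row) summed to 390 to 527 in wild-type and 486 to 605 in KO libraries, carried by Acta2 and Tagln.

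The epithelial and neuronal lists had higher sums in KO, mostly through 1 gene each. The 9 of 11 markers of simple epithelium with a row summed to 91.3 to 179 in wild-type and to 342, 675 and 891 in KO1, KO2 and KO3. Epcam, an adhesion molecule of epithelia, was at 72.5, 34.1 and 98.9 in wild-type and 214, 592 and 706 in KO libraries (log2 fold change 2.82, SE 0.50, limma adjusted p 0.0294), lowest in KO1 as Upk1b was. It lost its call in 5 of 15 other settings (highest limma adjusted p 0.156), among them without KO2, without WT1 and without WT2. Cdh1, the epithelial cadherin, was at 13.9, 20.9 and 17.0 in wild-type and 75.0, 37.9 and 78.9 in KO libraries and did not pass (limma adjusted p 0.0583). Krt8, Krt19 and Elf3 were at or below 0.797 in every library, and Cldn7 at or below 3.19. Krt18 was at 0 to 3.30 in wild-type libraries and at 0, 2.91 and 24.7 in KO1, KO2 and KO3. Muc1 was at 7.70 to 25.5 in wild-type and 21.4 to 24.7 in KO libraries, and Cldn4 at 24.2 to 37.1 and 17.5 to 52.6, which overlap. Of 12 neuronal markers 5 had a row, with sums of 124 to 165 and 421 to 446. Tubb3, a neuronal tubulin, rose from 40.4, 38.5 and 54.1 to 303, 360 and 311 (log2 fold change 2.86, SE 0.19, limma adjusted p 0.000139), with 8.95e-05 to 0.00273 under the 15 other settings. Syp, a synaptic vesicle protein gene that gave most of the wild-type sum, was at 82.3 to 107 in wild-type and 78.7 to 129.9 in KO libraries, which overlap. Map2 was at or below 4.28 in every library, and Stmn2 and Slc17a7 at or below 2.39. The part of such cells in the levels of the 6 genes was not tested.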

How the data were processed

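RNA of naive CD4 T cells was measured in 3 wild-type and 3 Trim28 KO libraries. The submitters' processing notes name the tools STAR, HTSeq and DESeq2 and the build mm10, with no roles or versions. The authors deposited 1 table of 19048 rows of log10 values, a unit inferred here: 10 to the deposited value, minus 1, was a whole multiple (within 0.01) of 1 step per library for 100% of values, so reads were recovered by dividing by it. Rows carry RefSeq accessions. RefSeq of GRCm38.p6 named 18807 and GENCODE M21 a further 108, and 133 stayed unnamed. Transcript lengths came from GENCODE M21.

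Limma 3.58.1 in R 4.3.3 was fitted to log2 values (normalized reads with a pseudocount of 1), with a mean-variance trend, on rows with a mean of at least 10, with Benjamini-Hochberg adjustment over all 13022 rows (called under 0.05, two-sided), after a test on simulated data. The 6 genes, the lists and the rules were chosen with earlier results of these data known. Named were, besides the 6 and Trim28, their neighbours, the partners and smallest p-values of each list, the highest markers, and the 3 nearest profiles per gene. Alternatives were pseudocount, filter, scaling (TMM factors computed directly, quantiles), variance model with limma's voom weights on recovered reads, a replicate block and leaving out each library. No source used here states whether counting used strand, so antisense reads cannot be told apart.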

Additional observations from a re-analysis of the deposited data

How the results depend on the processing

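Over all rows, 155 were called higher and 41 lower. Leaving out 1 library at a time gave 94 (without KO2) to 354 (without KO3) higher and 14 (without WT1 or WT3) to 199 (without KO3) lower, with 22 without KO1, 19 without KO2 and 18 without WT2. Without the mean-variance trend 17 were lower. Calls near the 6 genes ranged from 1 to 3 higher and those among relatives from 0 to 2 higher and 0 to 2 lower, each highest without KO3, which also left fewer samples. Same-numbered deviations from the group means correlated at -0.31, 0.26 and 0.36. KO2 and KO3 correlated best with the wild-type library of the same number, and KO1 with WT2 (0.37). With so few libraries per group these correlations depend on each other. They cannot decide whether the replicate numbers pair the libraries. With a replicate block, 143 rows were called higher and 32 lower, and 1 neighbour and 0 relatives were called.

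With a pseudocount of 10 the log2 fold changes were 6.95 (Upk1b), 6.17 (Cnr1), 5.87 (Lix1), 2.83 (Cthrc1), 3.40 (Wfdc2) and 3.75 (Prr5), since a larger pseudocount shrinks low genes, and with 0.5 that of Prr5 was 6.78. Leaving out each library gave 9.20 to 10.85 (Upk1b), 8.60 to 9.92 (Cnr1), 6.80 to 8.68 (Lix1), 5.10 to 6.00 (Cthrc1), 4.85 to 6.57 (Wfdc2) and 5.80 to 6.48 (Prr5). The 38 silent rows read in KO became 19 with at most 1 wild-type read, 107 with at most 10, 7 with a KO mean of at least 50, 14 with at least 10 in every KO library, and 24 (without KO3) to 51 (without KO1) when a KO library was left out. Depth limits the wild-type side, where most values rest on 0 to 3 reads.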
